A study of Mus musculus with 8 samples.

Results

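The genes that repair DNA and signal its damage were followed in the livers of male mice given oxaliplatin and of control mice. These 53 genes were fixed by name, and every one had at least 1 probe on the array, out of 21232 gene symbols in all. They cover nucleotide excision repair, base excision and single-strand break repair, mismatch repair, crosslink repair, both routes of double-strand break repair, translesion synthesis and the kinases that sense damage. Of the 53 genes, 49 had a probe bright enough to be tested, and Ercc2, Fancd2, Rad51c and Chek1 did not.

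The oxaliplatin group holds 4 livers of mice injected into the peritoneum, marked qw and 6w in the labels, which is read here as once weekly for 6 weeks. The control group holds 4 livers of mice labelled normal. The study set out to model hepatic sinusoidal obstruction syndrome, in which the narrow blood channels between liver cells are damaged and blocked. Both groups are male, no genetic change is named for either, and strain, age, dose and vehicle are not given in the sources used here. Total liver RNA was hybridised to Agilent one-colour arrays, 1 array per replicate, and the series calls the replicates biological.

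Oxaliplatin is a platinum drug that binds DNA bases, mostly linking neighbouring bases of a strand and sometimes the opposite strands. Nucleotide excision repair cuts out links within a strand, translesion polymerases copy past them, and links between strands call on Fanconi anaemia proteins and homologous recombination. Damage is sensed by the kinases ATM and ATR, which act through CHEK2 and CHEK1 and through the transcription factor p53. Most repair proteins are controlled after translation, so an mRNA level is not a measure of repair activity.

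Signals are given on a log2 scale relative to the 75th percentile of each array, and differences are oxaliplatin minus control. Means carry the SD and differences the SE, with n = 4 arrays per group throughout. Signals of different probes depend on the probe and are not set against each other. Between 27.2% and 40.9% of probes were well above background on an array, and no probe was saturated. Each slide and each scan held 1 group, so slide, scan and treatment cannot be told apart. A numbered tag in the names of the scanner files, called the run name here, differs between oxaliplatin replicates 1 and 2 and the remaining 6 arrays. Whether this tag marks a batch was not established. Control replicate 4 stood apart from the other arrays in correlations over all tested genes. With the other 3 control arrays it had 0.961 to 0.980, against 0.984 to 0.989 among those 3. With oxaliplatin arrays it had 0.937 to 0.957, against 0.967 to 0.978 for the other 3 control arrays. The hepatocyte genes marked the tissue as liver: 10 of 10 were tested and 4 were higher. Their summed level was 13.5 to 13.7 on oxaliplatin arrays and 13.3 to 13.4 on control arrays. Of the kidney markers 4 of 5 were above background on no array. A summed level is the log2 of the added linear signals of each listed gene's brightest probe, tested or not. The brightest genes of a list therefore weigh most in it.

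All directions follow the group labels, which no measurement in the files checks. Of 26 tested p53 targets for cell cycle arrest, feedback and cell death, 13 were lower and 0 higher in livers labelled oxaliplatin, a drug that damages DNA. Among all genes 11.6% were called lower and 6.99% higher, and the list was drawn up with its result known. Of these 13, Eda2r and Psrc1 were above background on control arrays only and passed the filter through them, so their calls are not counted as support. Phlda3, a repressor of Akt signalling, had 0.83 ± 0.23 on oxaliplatin arrays and 4.40 ± 0.27 on control arrays, a difference of -3.57 ± 0.17 (limma, adjusted p = 0.000214). In whole liver, fewer cells of a type and less RNA per cell cannot be told apart.

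The members were read by 133 probes of 60 bases, 81 from the Agilent catalogue and 52 custom ones, with between 1 and 4 probes per gene. For the catalogue probes the files give positions on mouse build mm9, and custom probes carry none. The sequences shown belong to members that passed the test, and capitals mark bases that the catalogue and custom probe of a gene share. The 2 Xpa probes overlap by 17 bases and the 2 Atr probes by 25, so each pair reads adjoining stretches of the same mRNA. The catalogue probe of Xpa lies at chr4:46197241-46197300 on the minus strand, and that of Atr at chr9:95851956-95852015 on the plus strand.
Xpa catalogue: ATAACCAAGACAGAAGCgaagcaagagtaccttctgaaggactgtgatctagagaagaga
Xpa custom: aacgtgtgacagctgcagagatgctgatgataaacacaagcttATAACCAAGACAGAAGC
Atr catalogue: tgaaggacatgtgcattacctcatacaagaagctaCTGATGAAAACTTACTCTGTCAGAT
Atr custom: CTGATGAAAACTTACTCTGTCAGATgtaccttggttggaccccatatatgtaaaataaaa

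For the next catalogue probes no overlap with another probe of their gene was found, and short shared runs were not searched. Those of Rev1 and Prkdc are shown because they give a second reading beside a brighter custom probe, one in the same direction and one in the other. Those of Mre11a and Xrcc5 were the brightest probes of their genes. The Rev1 probe lies at chr1:38136136-38136195 on the minus strand. The Prkdc probe at chr16:15839317-15841922, the Mre11a probe at chr9:14637146-14638095 and the Xrcc5 probe at chr1:72430014-72430320 are on the plus strand, and their intervals are longer than 60 bases because they cross from one exon into another.
Rev1 catalogue: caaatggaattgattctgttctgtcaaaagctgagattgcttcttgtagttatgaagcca
Prkdc catalogue: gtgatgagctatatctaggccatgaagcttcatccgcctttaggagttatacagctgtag
Mre11a catalogue: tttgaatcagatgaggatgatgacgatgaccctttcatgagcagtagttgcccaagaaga
Xrcc5 catalogue: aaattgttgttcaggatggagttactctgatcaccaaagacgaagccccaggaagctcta

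The polyadenylation hexamers AATAAA or ATTAAA, searched on the printed strand only, were found in 18 of 52 custom member probes (34.6%) and in 2 of 81 catalogue member probes (2.47%). Over all probes of RefSeq mRNAs they were in 32.4% of custom and 6.69% of catalogue probes. The match is a description of the letters and not a mapped mRNA end.

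Of the 49 tested members, 2 were higher and 9 lower in oxaliplatin livers at an adjusted p under 0.05 (limma, Benjamini-Hochberg over 13906 genes). Prkdc and Chek2 were higher. Polk, Rev1, Xpa, Mre11a, Brca1, Pms2, Ercc3, Atr and Xrcc5 were lower. The same test called 18.6% of all genes, 6.99% higher and 11.6% lower, so 11 called members of 49 are near the share among all genes. The groups of arrays did not overlap for 15 members, 3 higher and 12 lower, beside 27.7% of all genes, 9.25% higher and 18.4% lower. The remaining 38 members did not pass, of which 8 had an unadjusted p under 0.05. The median difference was -0.15 over the members and -0.09 over all genes, and the median absolute difference was 0.25 over the members and 0.27 over all genes. A negative difference was seen for 36 of the 49 members and for 59.4% of all genes.

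The count of lower members changed with single arrays. It was 4 without oxaliplatin replicate 3, 4 without control replicate 3 and 8 without control replicate 4, while the count of higher members was 2 whichever array was left out. The share called among all genes in these 3 fits was 7.3%, 8.36% and 16.1%, against 18.6% with every array. Among arrays of the first run name alone, oxaliplatin replicates 3 and 4 against the 4 controls, 4 members were lower (Polk, Rev1, Xpa and Brca1) and 0 higher, and all 11 kept their direction. In that comparison the share called among all genes was 3.7%.

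**Figure D1:**
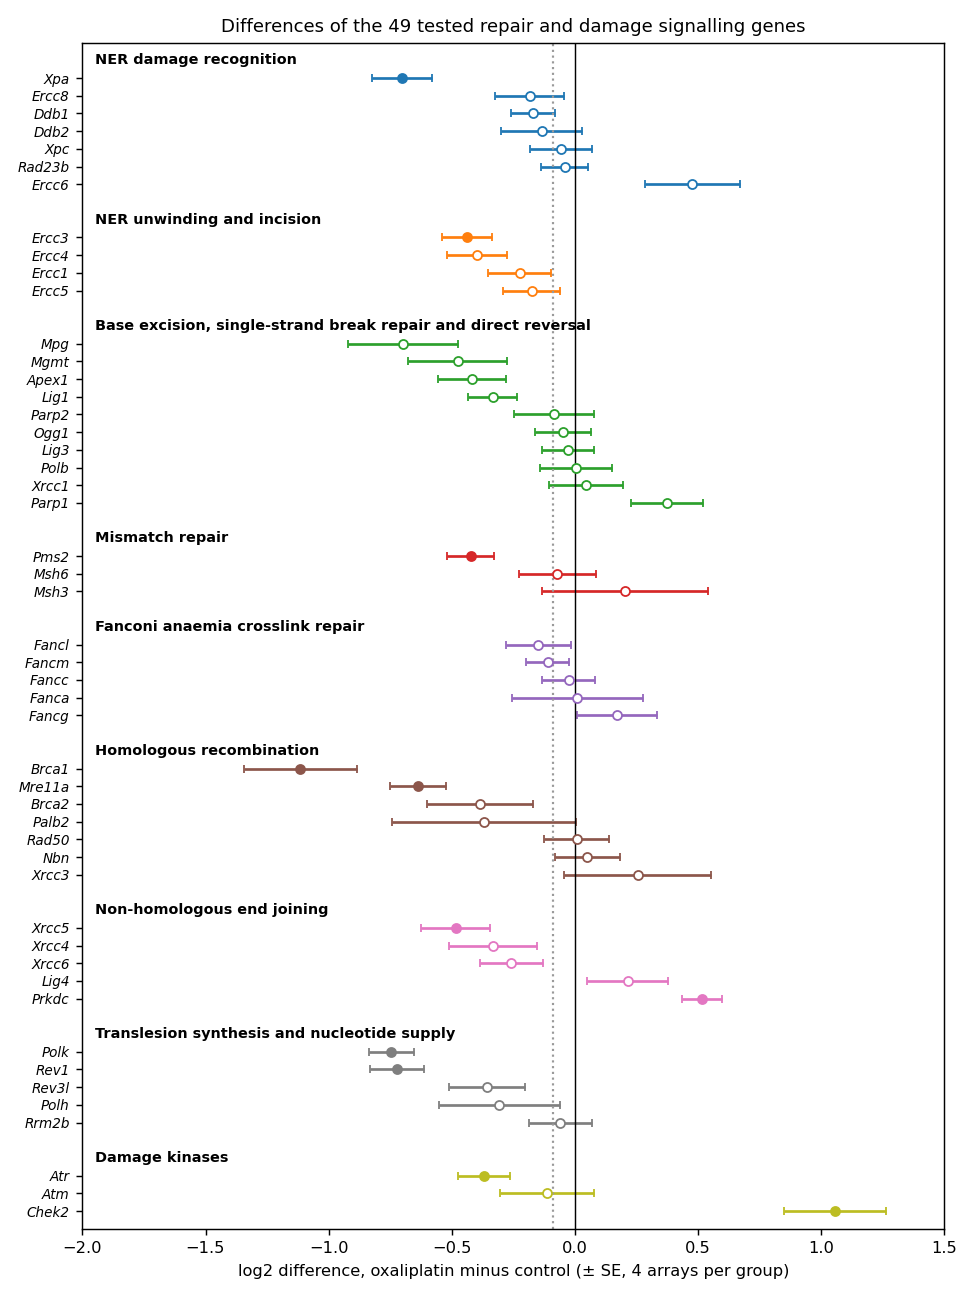
Differences of the 49 tested members by role, on the log2 scale (oxaliplatin minus control, x axis); bars are the SE, filled points passed the test and the dotted line is the median of all genes, -0.09. Brca1 lies farthest to the left at -1.11 and Chek2 farthest to the right at 1.05, and most open points lie between them near the dotted line.

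Damage recognition in nucleotide excision repair held 7 tested members, of which Xpa was lower and none was higher. Xpa, the protein that checks the damage and assembles the repair complex, had 3.98, 3.98, 3.78 and 3.64 on oxaliplatin arrays, against 4.45, 4.44, 4.53 and 4.77 on control arrays. Every oxaliplatin array lay below every control array, with a difference of -0.70 ± 0.12 (limma, adjusted p = 0.00993). The overlapping custom probe printed above gave -0.57 ± 0.15, the same direction. Xpa passed in 20 of the 21 alternative settings.

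Xpc, which finds distorted DNA and is a p53 target in human cells, had 4.44, 4.86, 4.73 and 4.83 on oxaliplatin arrays, against 4.79, 4.89, 4.84 and 4.57 on control arrays. Ddb2, the ultraviolet damage binder and a p53 target in human cells, had 2.33, 2.92, 2.56 and 2.54 on oxaliplatin arrays, against 2.74, 2.88, 2.90 and 2.37 on control arrays. The groups overlapped for both genes, and their differences of -0.06 ± 0.13 and -0.14 ± 0.17 did not pass (limma, adjusted p = 0.783 and 0.590). The sign for Xpc was positive under quantile normalization, at 0.05. Ddb1, the partner of Ddb2 in a ubiquitin ligase, had 7.66 ± 0.08 on oxaliplatin arrays and 7.83 ± 0.08 on control arrays. Ercc6, the transcription-coupled repair factor CSB, had 1.72 ± 0.20 and 1.25 ± 0.36 in the same order and also did not pass (limma, adjusted p = 0.114). The differences of Rad23b, which stabilises Xpc, and Ercc8, the transcription-coupled factor CSA, were -0.04 and -0.18.

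Unwinding and incision held 4 tested members, all with a negative difference, beside 59.4% of all genes. Ercc3, a helicase subunit of the TFIIH complex, had 5.34, 5.31, 5.30 and 5.47 in oxaliplatin livers, against 5.64, 5.74, 5.97 and 5.82 in control livers. The groups did not overlap, the difference was -0.44 ± 0.10 (limma, adjusted p = 0.0247), and the other Ercc3 probe gave -0.60 ± 0.12. Ercc3 did not pass without oxaliplatin replicate 1, 2 or 3 (adjusted p = 0.0509, 0.0657 and 0.0730) or without control replicate 3 (adjusted p = 0.0628). Ercc4, the nuclease XPF, had 2.88 ± 0.09 in oxaliplatin livers and 3.28 ± 0.21 in control livers, and missed the threshold although the groups did not overlap (limma, adjusted p = 0.0546). It passed with normexp (limma, adjusted p = 0.0377), with the intensity trend (0.0479) and among probes above background on all 8 arrays (0.0476). The mean of its probes includes a dimmer Ercc4 probe, above background on 1 oxaliplatin array and 4 control arrays. That probe gave -0.68 ± 0.11, and it passed the filter through the control arrays. No p is therefore given for that probe or for the mean, which is not counted as support. Ercc5, the nuclease XPG on the opposite side of the damage, had 1.67, 2.07, 1.85 and 1.97 in oxaliplatin livers, against 2.24, 2.03, 1.97 and 2.03 in control livers. These overlapped, at -0.18 ± 0.12 (limma, adjusted p = 0.310). Ercc1, the partner of Ercc4, differed by -0.23 and did not pass. The probes of Ercc2, the other TFIIH helicase, were above background on 0 oxaliplatin arrays and on at most 2 control arrays.

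Base excision, single-strand break repair and direct reversal held 10 tested members, and 0 passed (limma), with 5 at an unadjusted p under 0.05. Mpg, the glycosylase for alkylated purines, had 3.81 ± 0.12 in oxaliplatin livers and 4.51 ± 0.48 in control livers. Lig1, the ligase of replication and long-patch repair, had 2.76 ± 0.12 in oxaliplatin livers and 3.09 ± 0.09 in control livers. For both genes the groups did not overlap, and the adjusted p was 0.0611 and 0.0502 (limma). Mpg passed without control replicate 2 (-0.86, limma, adjusted p = 0.0333) and with normexp (0.0367). Lig1 passed with normexp (limma, adjusted p = 0.0107), with the intensity trend (0.04515) and among probes above background on all 8 arrays (0.0438). Both passed with median centring over all probes, and neither passed in the other alternatives. Parp1, which binds strand breaks and makes poly(ADP-ribose), had 2.96 ± 0.08 in oxaliplatin livers and 2.59 ± 0.29 in control livers, without overlap (limma, adjusted p = 0.107). Another Parp1 probe gave -0.0026 ± 0.15. Polb, the gap-filling polymerase, had 5.43 ± 0.29 in oxaliplatin livers and 5.43 ± 0.07 in control livers, and Lig3, the ligase paired with Xrcc1, had 2.32 ± 0.10 and 2.35 ± 0.15 in the same order. The other 5 were Ogg1, Apex1, Xrcc1, Parp2 and Mgmt, with differences between -0.48 (Mgmt, which removes alkyl groups directly) and 0.04 (Xrcc1, the scaffold of single-strand break repair).

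Mismatch repair held 3 tested members. Pms2, a subunit of the complex that nicks the new strand, had 0.50, 0.77, 0.66 and 0.61 on oxaliplatin arrays, against 1.09, 0.98, 1.03 and 1.14 on control arrays. All oxaliplatin values lay below all control values, a difference of -0.42 ± 0.09 (limma, adjusted p = 0.0214). It did not pass without oxaliplatin replicate 3 or 4 (adjusted p = 0.0604 and 0.0589) or without control replicate 3 (adjusted p = 0.0527), and it was -0.26 with normexp background correction. The 2 mismatch binders did not pass. Msh3 had 4.28 ± 0.31 on oxaliplatin arrays and 4.07 ± 0.71 on control arrays, where replicate 4 alone stood at 3.03. Msh6 had 4.23 ± 0.32 on oxaliplatin arrays and 4.30 ± 0.04 on control arrays.

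The Fanconi anaemia genes, whose products act on links between the strands, gave 5 tested members and no call. Their differences ran from -0.15 for Fancl to 0.17 for Fancg, with a median of -0.03. Fancl, the ubiquitin ligase of the core complex, had 3.49 ± 0.11 in oxaliplatin livers and 3.64 ± 0.24 in control livers. Fanca, a core subunit, had -0.33 ± 0.37 in oxaliplatin livers and -0.34 ± 0.48 in control livers. The core subunit Fancc and the translocase Fancm lay between. No brightest probe of a Fanconi member had an unadjusted p under 0.05. A second Fancm probe, above background on all 8 arrays, gave -0.46 ± 0.12 (limma, adjusted p = 0.0322 over probes). Fancd2, the protein that the core complex ubiquitinates, was above background on no array, so it gives no level in either group.

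Homologous recombination held 7 tested members, of which Brca1 and Mre11a were lower. Brca1, which promotes end resection and recruits the recombinase, had 1.84, 1.12, 1.21 and 0.85 in oxaliplatin livers, against 2.49, 1.93, 2.44 and 2.61 in control livers. Oxaliplatin replicate 1, at 1.84, lay closest to the lowest control at 1.93, and the groups did not overlap. The difference was -1.11 ± 0.23 (limma, adjusted p = 0.0174), the lowest of any tested member, and another probe at chr11:101350409-101350468 gave -1.39 ± 0.28. Brca1 missed the threshold without oxaliplatin replicate 3 (adjusted p = 0.0512) and without control replicate 3 (adjusted p = 0.0503).

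Mre11a, the nuclease of the complex that binds broken ends, had 1.26, 1.004, 0.98 and 1.05 in oxaliplatin livers, against 1.62, 1.60, 1.68 and 1.95 in control livers. The groups did not overlap, at -0.64 ± 0.11 (limma, adjusted p = 0.0111). Its partners in that complex did not pass: Rad50 differed by 0.01 ± 0.13 and Nbn by 0.05 ± 0.13. Nbn had 4.23 ± 0.13 in oxaliplatin livers and 4.18 ± 0.22 in control livers. The other 2 Mre11a probes, which carry the same 60 bases as each other, were above background on no array. Brca2 and Palb2, which load the recombinase, differed by -0.39 ± 0.21 and -0.37 ± 0.37, and Xrcc3, a recombinase paralog, by 0.25 ± 0.30. Palb2 had -1.50 ± 0.49 in oxaliplatin livers and -1.13 ± 0.71 in control livers, above background on 1 and 3 arrays. Rad51c, another paralog, was above background on no array.

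Non-homologous end joining held 5 tested members, with 1 call in each direction. Prkdc, the catalytic subunit of the DNA-dependent protein kinase, had 2.96, 2.97, 2.89 and 2.94 in oxaliplatin livers, against 2.48, 2.45, 2.43 and 2.34 in control livers. Both groups were tight and did not overlap, and the difference was 0.52 ± 0.08 (limma, adjusted p = 0.00743). The catalogue probe printed above read the other way, with 0.81, 0.59, 0.42 and 0.87 in oxaliplatin livers against 0.65, 0.93, 0.95 and 1.04 in control livers, a difference of -0.22 ± 0.14 that did not pass. The mean of the Prkdc probes gave 0.15 (adjusted p = 0.292), and the difference was -0.11 when arrays were centred on the median of all probes.

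Xrcc5, which encodes the Ku80 subunit that holds broken ends, had 4.06, 3.67, 3.65 and 3.82 in oxaliplatin livers, against 4.12, 4.18, 4.26 and 4.57 in control livers. The difference was -0.48 ± 0.14 (limma, adjusted p = 0.0457), and the highest oxaliplatin array came within reach of the lowest control. Of the 8 arrays left out in turn, only the omission of oxaliplatin replicate 1 kept the call, and the other 7 adjusted p values lay between 0.0508 and 0.119. Xrcc6, the Ku70 partner, had 4.82 ± 0.11 in oxaliplatin livers and 5.08 ± 0.22 in control livers and did not pass. Lig4, the ligase of this route, had 2.36 ± 0.13 and 2.14 ± 0.32 in the same order. Its scaffold Xrcc4 differed by -0.33 ± 0.18.

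Translesion synthesis and nucleotide supply held 5 tested members, all with a negative difference, beside 59.4% of all genes. Polk and Rev1 were lower. Polk, a polymerase that copies past bulky damage and a p53 target in mouse, had 2.07, 2.02, 2.08 and 2.12 on oxaliplatin arrays, against 2.74, 2.73, 2.98 and 2.81 on control arrays. The oxaliplatin arrays lay close together and all below the controls. The difference was -0.75 ± 0.09 (limma, adjusted p = 0.00369), and a catalogue probe gave -0.63 ± 0.15. A dimmer Polk probe, not tested, was above background on 2 oxaliplatin arrays and on 0 control arrays.

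Rev1, the scaffold that gathers the translesion polymerases, had 3.104, 3.45, 3.34 and 3.32 on oxaliplatin arrays, against 3.99, 3.97, 4.20 and 3.95 on control arrays. The gap between the groups was wider than the spread within either, at -0.72 ± 0.11 (limma, adjusted p = 0.00696). The Rev1 catalogue probe printed above gave -0.68 ± 0.14 and a further one -0.11 ± 0.13. Polk and Rev1 passed in all 21 alternative settings. Rev3l, the catalytic subunit of polymerase zeta, had 3.87 ± 0.26 on oxaliplatin arrays and 4.23 ± 0.18 on control arrays. Polh, which copies past ultraviolet and platinum lesions, had -1.56 ± 0.52 and -1.25 ± 0.20 in the same order, and neither passed. Rrm2b, the p53-inducible subunit of ribonucleotide reductase, had 0.71, 1.05, 1.13 and 1.15 on oxaliplatin arrays, against 1.18, 1.06, 1.15 and 0.88 on control arrays. These overlapped, at -0.06 ± 0.13 (limma, adjusted p = 0.774).

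**Figure D2:**
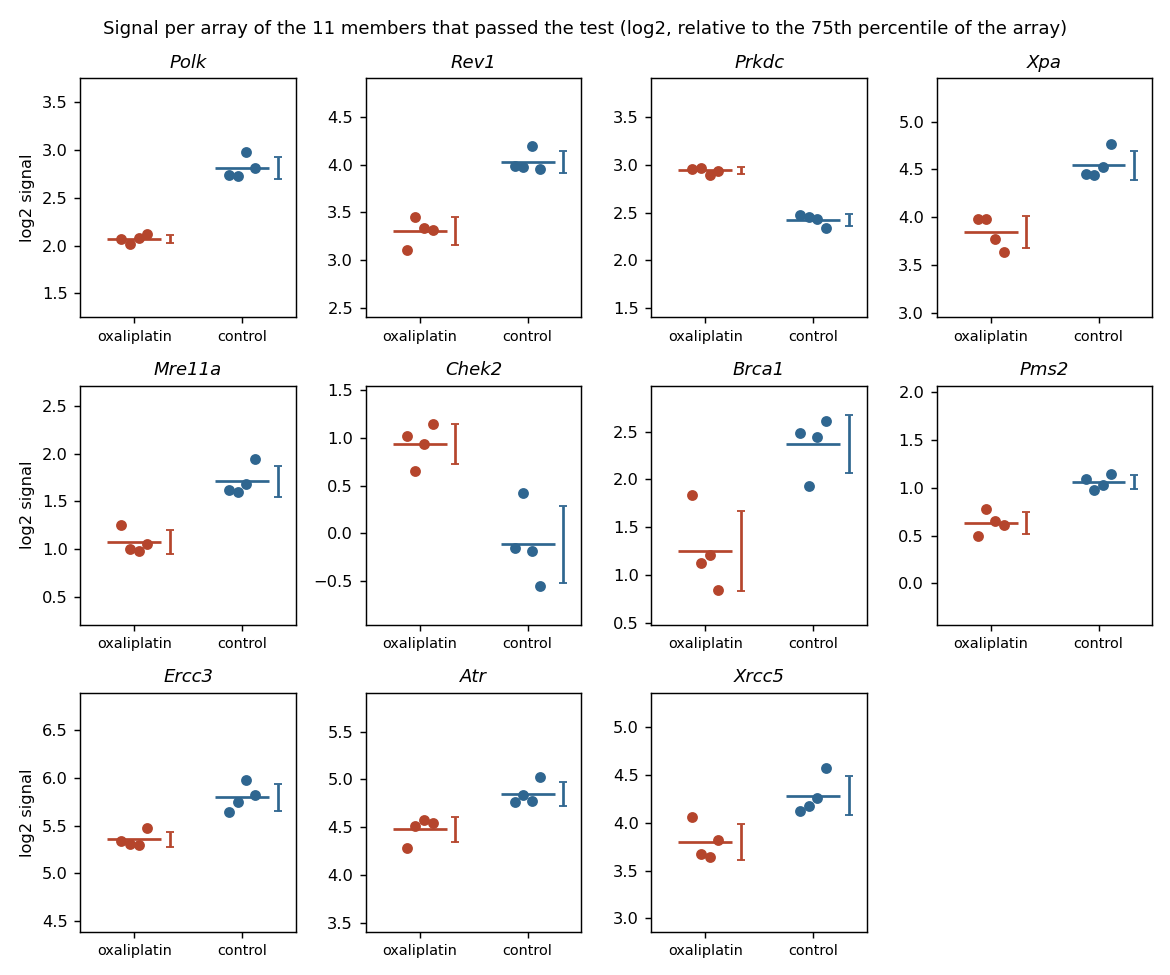
Signal on each array (points) of the 11 members that passed the test, on the log2 scale relative to the 75th percentile of the array, with the group mean (line) and SD (bar); every panel spans the same range of log2 units. The oxaliplatin arrays lie above the control arrays for Prkdc and Chek2 and below them for the other 9, and Brca1 and Xrcc5 come closest to overlapping.

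Of the damage kinases, Chek2 was higher, Atr lower, Atm did not pass and Chek1 could not be tested. Chek2, which relays signals from ATM, had 1.02, 0.65, 0.94 and 1.14 in oxaliplatin livers, against -0.15, 0.43, -0.19 and -0.55 in control livers. The groups did not overlap, and control replicate 2 came closest to the oxaliplatin arrays. The difference was 1.05 ± 0.21 (limma, adjusted p = 0.0145), and 0.52 with normexp background correction. Chek2 did not pass with median centring over all probes (0.43, adjusted p = 0.0928) or with the first run name only (1.16, adjusted p = 0.0688). The other 2 Chek2 probes were above background on no array.

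The Chek2 probe was well above background on all 8 arrays. Probes dimmer than it differed between the groups: over 78319 probes above background on no array, the median signal was -3.23, -2.65, -3.74 and -3.52 on oxaliplatin arrays, against -4.18, -3.90, -3.81 and -3.74 on control arrays. Among genes with a mean signal between 0 and 1, as for Chek2, 11.5% were called higher and 8.5% lower, and their median difference was 0.03. Of the T, NK and B lymphocyte markers, 2 of 8 tested were higher, and Cd4 and Cd79a were above background on no array. Their summed level was 5.42 to 6.17 on oxaliplatin arrays and 5.24 to 6.09 on control arrays. Of the erythroid markers, 4 of 5 tested were higher, with a summed level of 10.6 to 11.4 on oxaliplatin arrays and 8.44 to 10.5 on control arrays, and Epb42 was above background on no array. Of the neutrophil markers 0 of 4 tested passed (limma, 0 at an unadjusted p under 0.05). All 4 had a negative difference, beside 59.4% of all genes. Their summed level was 5.09 to 8.27 on oxaliplatin arrays and 7.24 to 8.49 on control arrays.

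Of 8 Kupffer cell and macrophage markers 1 was higher and 1 lower, with differences between -2.26 and 1.47 and a summed level of 9.59 to 10.65 on oxaliplatin arrays and 9.58 to 10.63 on control arrays. The sinusoidal endothelial list had 1 of 8 lower and the stellate cell list 1 of 6. Their summed levels were 8.53 to 8.92 and 8.35 to 8.54 on oxaliplatin arrays, against 8.64 to 8.89 and 8.49 to 8.88 on control arrays. Of 4 tested cholangiocyte markers 0 passed, with 1 at an unadjusted p under 0.05. Of 3 tested pancreas markers 1 was higher, with a summed level of 2.73 to 3.02 on oxaliplatin arrays and 1.97 to 2.43 on control arrays, and Cpa1 and Prss2 were above background on no array. The part of any of these cell types in the differences of the 2 higher and 9 lower members was not tested.

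Atr, the kinase that answers stalled replication, had 4.29, 4.51, 4.57 and 4.54 in oxaliplatin livers, against 4.76, 4.83, 4.77 and 5.02 in control livers. The difference was -0.37 ± 0.11 (limma, adjusted p = 0.0448), and the overlapping probe printed above gave -0.33 ± 0.13 and a further one -0.30 ± 0.12. Although the groups did not overlap and 3 probes had 1 direction, Atr missed the threshold whichever array was left out, with adjusted p between 0.0582 and 0.0909. Atm, which answers double-strand breaks, had 0.23, 0.60, 0.83 and 0.78 in oxaliplatin livers, against 0.72, 1.09, 0.76 and 0.33 in control livers, at -0.11 ± 0.19 (limma, adjusted p = 0.702). A custom Atm probe gave another picture, with 0.59, 0.69, 0.94 and 0.82 in oxaliplatin livers against 0.59, -0.05, -0.12 and -0.40 in control livers. That difference was 0.76 ± 0.20 (limma, adjusted p = 0.0364 over probes). It overlapped at control replicate 1, and the Atm sign was positive without oxaliplatin replicate 1 and without control replicate 2, at 0.01 each. One of the 3 Chek1 probes read -1.89, -2.63, -2.24 and -2.60 in oxaliplatin livers, against -4.20, -3.85, -3.75 and -3.69 in control livers, all below background as were the other 2 probes on every array, so no fold is given.

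**Figure D3:**
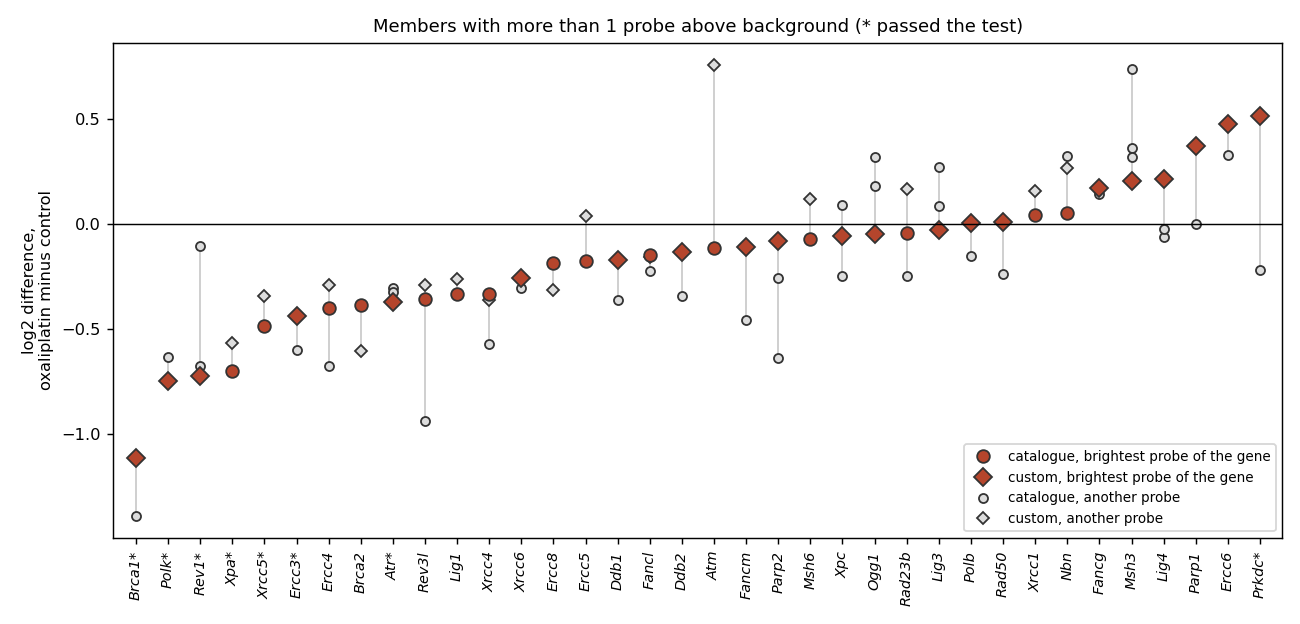
Log2 difference (oxaliplatin minus control, y axis) of every tested probe of the 36 members with more than 1, ordered by the brightest probe; lines join probes of a gene, and a star marks members that passed. The probes of Polk, Xpa, Brca1, Ercc3 and Atr lie close together below 0, while those of Prkdc and Atm lie on both sides; the lowest Rev3l probe was above background on no oxaliplatin array and is drawn at its measured value.

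Several probes of one gene offered a check on each value. Of 36 members with more than 1 tested probe, 24 had the same sign in all of them (66.7%), and the share was the same, 66.7%, over 10513 genes. Among the 11 called members, 8 had another tested probe and 7 of these had all probes in 1 direction, Prkdc being the exception. Mre11a, Chek2 and Pms2 rested on a single tested probe each. Some members that did not pass by their brightest probe had second probes that passed over probes. They were picked after their values were seen, among 100 tested member probes in a fit over 54636 probes. The share called in that fit is not given, so these calls are not set against a background. Those of Atm and Fancm are given above. A Parp2 probe gave -0.64 ± 0.16 and a Ddb1 probe -0.36 ± 0.11 (limma, adjusted p = 0.0316 and 0.0493). Dim second probes of Ercc4 and Rev3l are not counted as support, because they passed the filter through the control arrays. The Rev3l probe was above background on control arrays only.

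**Figure D4:**
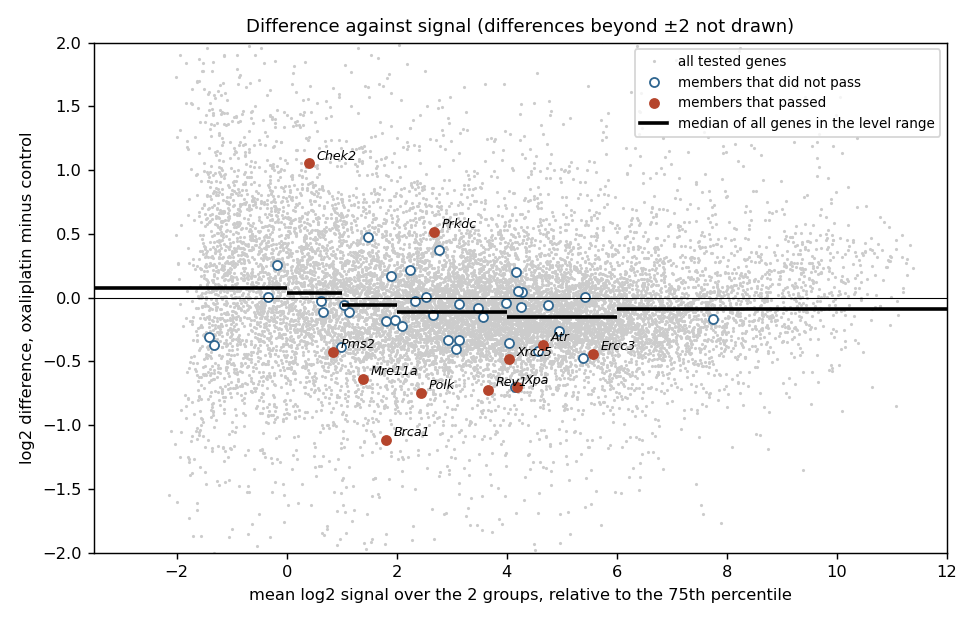
Log2 difference (oxaliplatin minus control, y axis) against the mean log2 signal over both groups (x axis) for all tested genes (grey), members that did not pass (open) and members that passed (filled); black lines are medians of all genes within ranges of signal. The medians run from 0.08 at the dim end to -0.15 at signals of 4 to 6, Chek2 and Prkdc lie above them and the other 9 named genes below.

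The repair members include 5 that are linked to p53, set here beside the p53 targets of arrest, feedback and death. Polk was lower and Xpc, Ercc5, Rrm2b and Ddb2 did not pass, with differences between -0.18 and -0.06. Of the 26 tested arrest, feedback and death targets 13 were lower, Eda2r and Psrc1 among them, beside 11.6% of all genes. Among the 13, Ccng1, a cyclin of the p53 feedback loop, had 3.53 ± 0.13 in oxaliplatin livers and 5.11 ± 0.13 in control livers, at -1.58 ± 0.11 (limma, adjusted p = 0.000889). Zmat3, an RNA-binding zinc finger protein, had 3.04 ± 0.11 in oxaliplatin livers and 4.12 ± 0.24 in control livers, at -1.08 ± 0.13 (limma, adjusted p = 0.00375). Eda2r, a receptor of the tumour necrosis factor family, was not well above background on any oxaliplatin array and was at least 6.4-fold lower there. It passed the filter through control arrays alone, so no p is given for it. The fold sets the control mean against the mean of the lowest signal well above background on each oxaliplatin array, or the probe's own signal where higher. The median difference of the 26 tested targets was -0.88, beside -0.09 over all genes. Setting Eda2r and Psrc1 at their bounds cannot move this median, because both bounds lie below it. The result for these targets was known from these data when the list was drawn up.

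**Figure D5:**
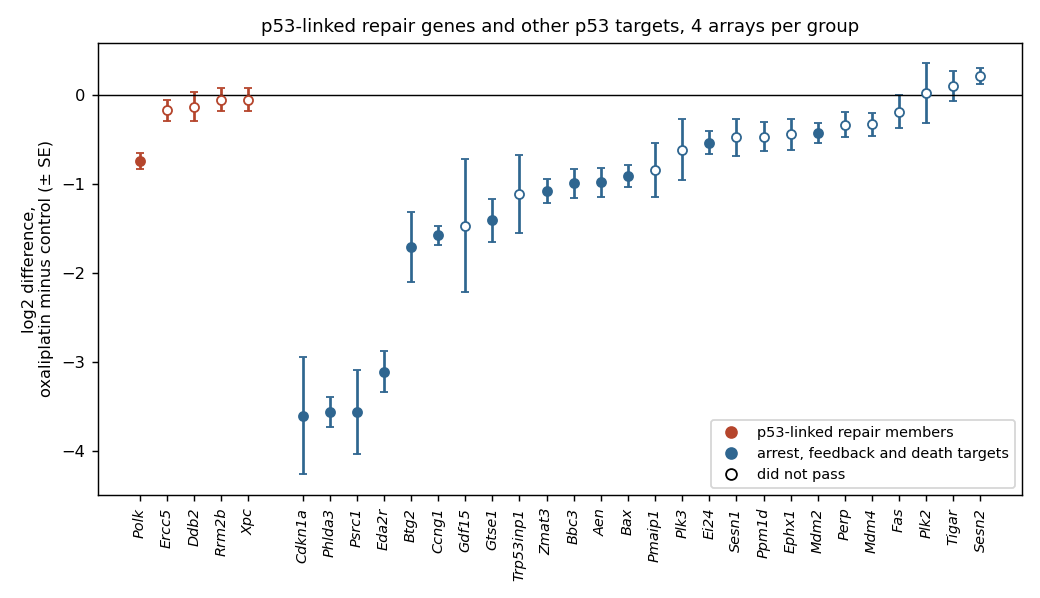
Log2 differences (oxaliplatin minus control, y axis, bars SE) of the 5 p53-linked repair members (left) and of 26 other p53 targets (right); filled points passed the test. Polk at -0.75 is the lowest of the repair members, while the other targets reach -3.61; Eda2r and Psrc1 were above background on no oxaliplatin array and are drawn at their fitted values.

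A wider list of 105 further repair genes gave 95 that could be tested, of which 1 was higher and 13 lower, with a median of -0.21. Among all genes 6.99% were called higher and 11.6% lower, so the lower count is near the share among all genes. Nhej1, an end-joining factor that works with Xrcc4 and Lig4, was the higher one, with 4.12 ± 0.12 in oxaliplatin livers and 3.62 ± 0.04 in control livers, at 0.51 ± 0.09 (limma, adjusted p = 0.0120). Cul4a, the cullin that carries Ddb1, had 4.82 ± 0.09 in oxaliplatin livers and 5.41 ± 0.16 in control livers, at -0.59 ± 0.11 (limma, adjusted p = 0.0121). Gtf2h5, a small TFIIH subunit, had 3.79 ± 0.06 and 4.31 ± 0.15 in the same order, at -0.52 ± 0.10 (limma, adjusted p = 0.0144). Fancf, of the Fanconi core complex, had 3.28 ± 0.14 in oxaliplatin livers and 3.85 ± 0.14 in control livers, at -0.57 ± 0.11 (limma, adjusted p = 0.0149). Others among the lower genes were Blm, Uvssa, Atrip, Rad52, Wee1, Cul4b, Usp1, Uimc1 and Mnat1. The lower count was 8, 4 and 7 without oxaliplatin replicates 1, 3 and 4, and 5 without control replicate 3, and it was 1 among arrays of the first run name alone. Without those arrays the share called among all genes was 12.2%, 7.3%, 9.43% and 8.36%, and it was 3.7% with the first run name alone.

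Several repair genes, Brca1 among them, are transcribed mainly in dividing cells. Of 22 tested proliferation genes, 0 were higher and 1 was lower at an adjusted p under 0.05 (limma), with 5 at an unadjusted p under 0.05. The lower gene was Gins1, of the replicative helicase, with 3.07 ± 0.20 in oxaliplatin livers and 3.87 ± 0.24 in control livers, at -0.80 ± 0.15 (limma, adjusted p = 0.0135). The summed level of the proliferation list, as defined above, was 7.58 to 7.67 on oxaliplatin arrays and 7.69 to 8.06 on control arrays. Ccne2 was above background on no array. The part of dividing cells in the Brca1 difference was not tested.

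The spread within groups was not even over the arrays. The median SD of the members was 0.167 among oxaliplatin arrays and 0.194 among control arrays, beside 0.175 and 0.226 over all genes. Within the oxaliplatin group replicate 1 gave the highest or the lowest value for 34 of 49 members, and within the control group replicate 4 did so for 32 of 49.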

How the data were processed

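Arrays were read from the scanner files of 4 oxaliplatin and 4 control livers. Per the file headers, the deposited processed signal is a fluorescence intensity, background-subtracted by Feature Extraction 12.0.3.1 and not normalized between arrays; version 10.7 and limma stand in the submitters' processing notes. The deposited flags (well above background, saturated, outlier) take the values 0 and 1. The deposited series matrix holds log2 values of 46867 probes with column medians between 5.76 and 5.83, which correlated with the log2 scanner signal of the same array at 0.9964 to 0.9998 across probes; its scale and direction follow the scanner signal, and its normalization and centring are not given in the sources used here.

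From these, log2 signals minus the 75th percentile of the 149782 non-control probes of each array were computed, outlier spots were dropped (10 genes lack an array value), and probes well above background on at least 4 of 8 arrays were kept. Of 48257 probes with a RefSeq accession 47985 were named through the RefSeq gene table (GRCm38.p6, names only), and 121 more probes by the symbol in the file. Each gene was read by its brightest probe. The difference between groups was fitted by limma 3.58.1 (lmFit, eBayes; R 4.3.3) without covariates, with Benjamini-Hochberg adjustment over 13906 genes. On simulated data with 200 of 13906 genes changed, 25.4% were called at a log2 change of 0.5, 52.2% at 1 and 84.8% at 2, and 5 of 113 calls were false. The simulated noise was independent between genes, and the number changed was not matched to the 2586 genes called in the data. These rates therefore need not hold for the reported test. The number of arrays limits the precision.

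Members, lists and tests were chosen with earlier results of these data known. Values on every array are given for members that passed, p53-linked members and damage kinases; group means for the brightest and dimmest member of a role and for groups without overlap; and, of further lists, for at most 4 genes with the smallest adjusted p. Second probes, the Msh3 array value and single differences of other members were added after their values were seen. H2afx, of the further list, was not found by name. A gene of that list that passed is counted but not reported by name here. Same-numbered arrays deviated from their group means with correlations of -0.32, -0.08, -0.09 and -0.23, so the numbers do not pair the samples. Alternatives covered background, scaling, filter, probe choice, variance model, each array left out, run name and a replicate block. Median centring over detected probes was added after the data were seen.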

Additional observations from a re-analysis of the deposited data

Results flagged for a closer look

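Of 98 groups of 4 arrays, one per member and treatment, 4 held a value far from the other 3 by Dixon's test, where chance gives about 1 in 20. All 4 were control arrays. Rev1 had 4.20 in control replicate 3, against 3.95 to 3.99 in the other controls. Ercc4 had 3.59 in control replicate 4, against 3.13 to 3.20. Parp1 had 2.16 in control replicate 4, against 2.70 to 2.78. Lig4 had 1.67 in control replicate 1, against 2.24 to 2.33.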

How the results depend on the processing

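Polk and Rev1 passed in all 21 alternatives, Xpa in 20, Mre11a in 19, Brca1 and Chek2 in 18, Prkdc in 17, Ercc3 and Pms2 in 14, Xrcc5 in 5 and Atr in 4. The count of lower members, 9 as reported, was 15 with normexp, 41 with median centring over all probes, 5 with run name as covariate and 4 with the first run name only. In the same order, the share called among all genes was 23.5%, 71.3%, 6.61% and 3.7%, against 18.6% as reported. With the mean of probes it was 15.5%. The count of higher members, 2 as reported, was 0 with median centring, 1 with the mean of probes and 0 with the first run name only. Called genes, 2586 as reported, were 9913 with median centring, 4099 with no filter, 919 with run name as covariate and 515 with the first run name only. With the replicate block, 0 members were higher and 2 lower, and 529 genes were called. Leaving out each array gave 2 higher members every time, 4 to 8 lower members and 1015 to 2330 called genes. Median centring moved the median of all genes by -0.63, no filter by 0.18 and the 75th percentile over detected probes by 0.11. Relative to the median of all genes, Prkdc was at 0.60 both as reported and with median centring. Median centring only subtracts another constant from each array, so this equality holds by construction and is no check on Prkdc.

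Of called genes 37.6% were higher as reported, against 20.6% with normexp, 50% with quantile normalization, 2.32% with median centring, 48.8% with median centring over detected probes, 60.5% with the percentile over detected probes, 67.6% with no filter and 49.3% with the series matrix. Reversed signs were -0.11 for Prkdc and -0.25 for Parp1 with median centring. Atm, Rrm2b and Xpc, which did not pass, were 0.079, 0.070 and 0.0089 when run name was a covariate and the same with the first run name only. With 1 array left out they ran from -0.25 to 0.011 (Atm), -0.12 to 0.040 (Rrm2b) and -0.12 to 0.036 (Xpc). Atm was 0.32 with the mean of probes. With median centring over detected probes Rrm2b was 0.0038 and Xpc 0.0071, and with the percentile over detected probes 0.051 and 0.054. Xpc was 0.052 with quantile normalization and 0.053 with the series matrix. The cause was not tested. No fit with the slide as a term was possible, because a slide held arrays of 1 treatment only. Members above background on no array give no level at this signal.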
